A study of Mus musculus with 6 samples.

Results

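Granzymes are serine proteases that cytotoxic lymphocytes store in secretory granules together with the pore-forming protein perforin, and this account follows 10 genes of that system in mouse regulatory T (Treg) cells with and without the transcription factor Batf. The genes were Gzma, Gzmb, Gzmc, Gzmk and Gzmm for granzymes, Prf1 for perforin, and Nkg7, Srgn, Serpinb9 and Lamp1 for other proteins of the granule or its protection. They are 10 of 18193 genes that the arrays measured through probe sets naming a single gene, and 12 of 34945 such probe sets belong to them. The set was chosen by function, but also from knowledge of the genotype difference in these same arrays, in which Gzmb was already known to stand out. The differences between genotypes in these 10 genes are therefore given as a description, and nothing is supported with them.

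The study compared 3 arrays of Batf+/+ Treg cells with 3 arrays of Batf-/- Treg cells, with lymph node and spleen as the tissues and C57BL/6 as the strain. In both genotypes the mice carried FoxP3hCD2, a reporter that puts human CD2 on cells expressing Foxp3, and CD4+hCD2+ cells were sorted and used directly, without culture or treatment. The labels name Batf-/- mice without any Cre driver, so the loss of Batf was not limited to Treg cells as far as they say, and they give neither the age of the mice nor whether each array came from a different animal. The p-values below thus measure the spread between arrays, which may be partly technical.

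Each value is a log2 level relative to the middle Batf+/+ array of the same probe set, so 0 is the typical Batf+/+ level and -1 is a halving. Such values show how a gene differs between arrays and hold no information on how abundant its RNA was, so no gene's level can be set against another's. The Batf probe set stood at -3.13, -3.16 and -2.37 on the 3 Batf-/- arrays against -0.13 to 0.14 on the Batf+/+ arrays, which follows the labels. Foxp3 lay between -0.16 and -0.15 on Batf-/- arrays and between -0.15 and 0.04 on Batf+/+ arrays, a difference of -0.12 ± 0.08 (SE, n = 3 arrays per genotype) that did not pass the test over all genes (limma adjusted p = 0.892). In sorted cell pools such as these, fewer cells that express a gene and less RNA per cell cannot be told apart.

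In cytotoxic T cells and NK cells, perforin opens the way for granzymes into a target cell, where granzyme B cleaves caspases and other proteins after aspartate and starts apoptosis. Serglycin, the product of Srgn, holds the positively charged granzymes in the granule core, Nkg7 is a granule membrane protein needed for efficient release, and Lamp1 is a lysosomal membrane protein that appears on the cell surface once granules have fused with it. Serpinb9 is a cytosolic inhibitor that protects the cell from its own granzyme B. Activated Treg cells can also make granzyme B, which has been tied to killing of effector cells and to Treg cell turnover.

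The granule genes differed in direction and size. Gzmb fell 4.02-fold in Batf-/- cells and its chromosomal neighbour Gzmc fell 1.57-fold, while the other 8 genes did not pass the test. Among those 8, Nkg7 was higher on every Batf-/- array and Gzma, Gzmk, Gzmm, Srgn, Serpinb9 and Lamp1 overlapped between genotypes. Of all 18193 genes, 0.83% passed the limma test in the lower direction and 0.313% in the higher direction (adjusted p below 0.05), and 2 and 0 of the 10 granule genes did. At an unadjusted p below 0.05 the counts were 2 and 1, where 4.44% of all genes were lower and 3.25% higher. In 2 genes all Batf-/- arrays lay below all Batf+/+ arrays and in 2 they lay above, a separation found in 6.55% and 5.5% of all genes. As the contrast that chose the genes is the one counted here, these shares are printed beside the counts and nothing is read from them. The median log2 difference of the 10 genes was 0.04, and that of all genes was 0.0047.

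**Figure D1:**
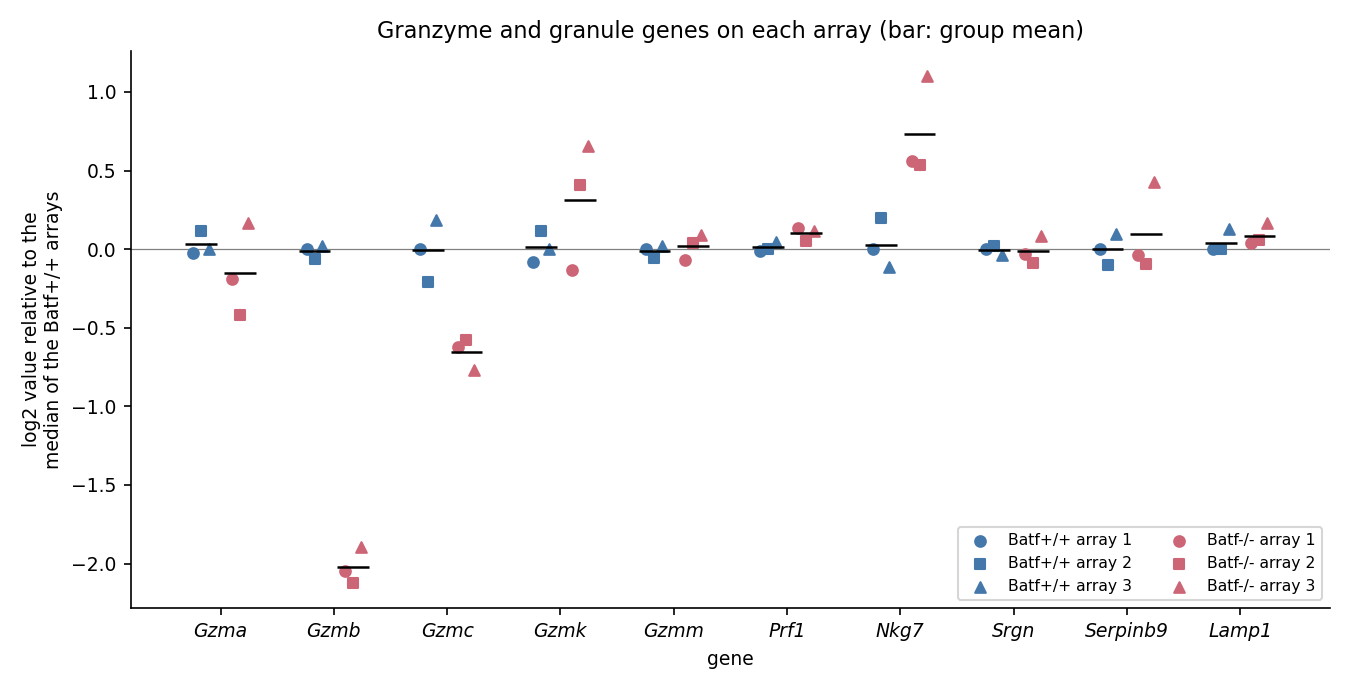
Log2 value of each of the 10 genes (x axis) on each array, set against the Batf+/+ median (y axis), with Batf+/+ in blue, Batf-/- in red, the array number as the marker shape and the group mean as a bar. Gzmb lies between -2.12 and -1.89 on the Batf-/- arrays, Gzmc between -0.77 and -0.58, and Nkg7 between 0.54 and 1.10.

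Gzmb, granzyme B, gave 0, -0.06 and 0.02 on Batf+/+ arrays 1, 2 and 3 and -2.04, -2.12 and -1.89 on Batf-/- arrays 1, 2 and 3. The 3 Batf-/- arrays were within 0.23 of each other and far below every Batf+/+ array. The group means were -0.01 ± 0.04 (SD, n = 3) and -2.02 ± 0.12 (SD, n = 3), a difference of -2.01 ± 0.08 (SE, 95% interval -2.19 to -1.82). By size Gzmb ranked 11 among all genes. Quantile normalization, which forces all arrays onto 1 distribution, brought the difference to -1.39, still past the threshold. Because the values are set against the Batf+/+ median, the Batf+/+ arrays are narrower by construction. The setting widens them and narrows the Batf-/- arrays, and the difference of Batf itself went from -2.89 to -2.02. The same setting applies to the genes below.

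Gzmc, granzyme C, a less studied granzyme known from activated mouse cytotoxic lymphocytes, gave 0, -0.21 and 0.19 on Batf+/+ arrays and -0.62, -0.58 and -0.77 on Batf-/- arrays. The groups did not overlap, but the Batf+/+ arrays ranged over 0.39, more than the Batf-/- arrays with 0.19. The difference was -0.65 ± 0.11 (SE, n = 3 arrays per genotype, 95% interval -0.90 to -0.40), which is 1.57-fold. Its direction was the same in all 12 alternative settings, with values from -0.75 to -0.50, but Gzmc passed the threshold in only 5 of them. It no longer passed without Batf+/+ array 1 or 3, without any single Batf-/- array, after quantile normalization or when every probe set was tested by itself.

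Gzmb and Gzmc are neighbours in a row of granzyme genes on mouse chromosome 14. In assembly GRCm38.p6, Gzmb spans chr14:56258836-56262334 and Gzmc chr14:56231397-56241647, with 17.2 kb between them. The next measured granzyme genes beyond Gzmc are Gzmf, Gzmn and Gzmg, with log2 differences of -0.11 ± 0.12, 0.11 ± 0.16 and -0.0034 ± 0.07 (SE). On the other side of Gzmb lie Atp12a, a proton pump subunit, Rnf17, a germ cell protein, and Cenpj, a centriole protein, with differences of -0.04, -0.06 and 0.10. None of these 6 passed the test over all genes, with limma adjusted p values from 0.995 to 0.99991. Gzma (chr13:113093824-113100981) and Gzmk (chr13:113171630-113180965) form a second pair, 70.6 kb apart on chromosome 13. There 0 of 8 measured genes passed in either direction, with differences from -0.18 for Gzma to 0.30 for Gzmk. Granzyme genes resemble each other in sequence, and how far each probe set also binds RNA of its relatives was not tested.

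**Figure D2:**
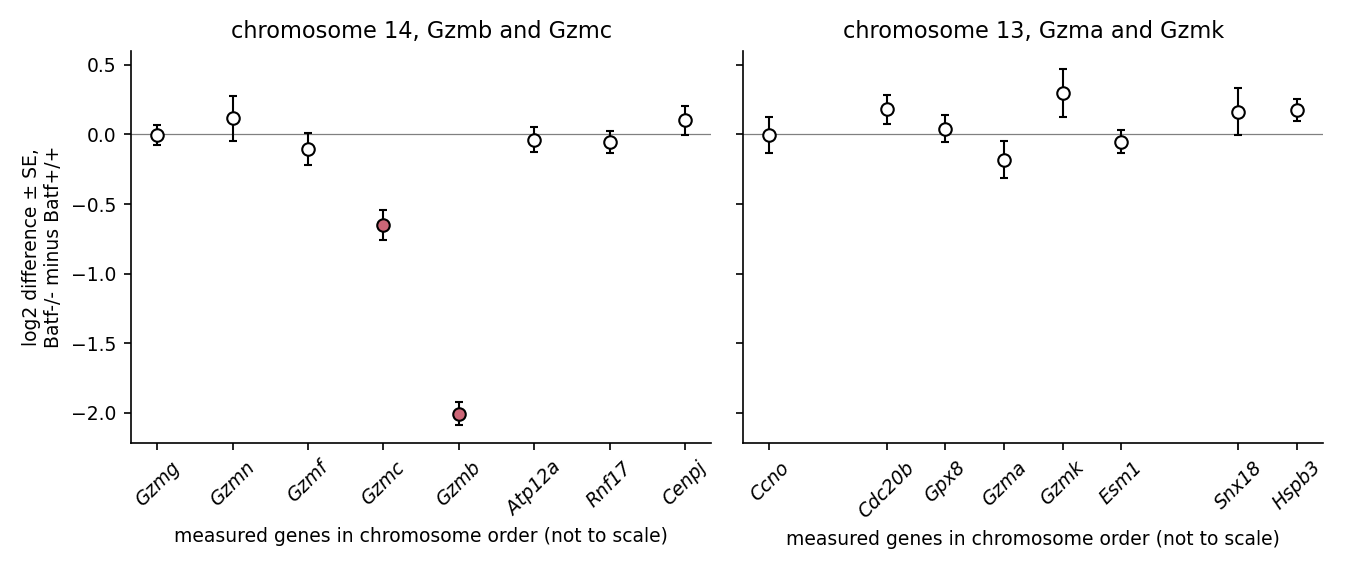
Log2 difference between Batf-/- and Batf+/+ Treg cells (y axis, mean ± SE, n = 3 arrays per genotype) for measured genes in chromosome order, not to scale, around Gzmb and Gzmc (left) and around Gzma and Gzmk (right). Filled points passed the limma test over all genes. On the left these are Gzmc at -0.65 and Gzmb at -2.01, and on the right there are none.

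The sequences before the start sites of Gzmb and Gzmc are shown as those of the genes that fell, with Nkg7 and Gzma for comparison, because Batf binds DNA with Jun proteins at AP-1 elements. Each run is the 250 bases before the start site, 5′ to 3′ on the gene's strand, from RefSeq (GRCm38.p6). Capitals mark matches on either strand to 4 motifs: AP-1 (TGANTCA), CRE (TGACGTCA), the core of T-box sites (GGTGTGA) and of RUNX sites (TGTGGT, which reads ACCACA on the other strand).
Gzmb, chr14:56262335-56262584, minus strand: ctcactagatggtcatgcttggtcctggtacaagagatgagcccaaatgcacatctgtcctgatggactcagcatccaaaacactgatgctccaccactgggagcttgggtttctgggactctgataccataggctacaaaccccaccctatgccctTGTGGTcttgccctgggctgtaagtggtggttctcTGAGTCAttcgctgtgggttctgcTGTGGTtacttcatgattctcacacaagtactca
Gzmc, chr14:56234658-56234907, minus strand: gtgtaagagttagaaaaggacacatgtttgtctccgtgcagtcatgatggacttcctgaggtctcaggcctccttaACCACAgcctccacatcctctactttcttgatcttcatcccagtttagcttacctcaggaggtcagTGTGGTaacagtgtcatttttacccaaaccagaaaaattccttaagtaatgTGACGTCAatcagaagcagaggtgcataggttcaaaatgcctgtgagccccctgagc
Nkg7, chr7:43436888-43437137, plus strand: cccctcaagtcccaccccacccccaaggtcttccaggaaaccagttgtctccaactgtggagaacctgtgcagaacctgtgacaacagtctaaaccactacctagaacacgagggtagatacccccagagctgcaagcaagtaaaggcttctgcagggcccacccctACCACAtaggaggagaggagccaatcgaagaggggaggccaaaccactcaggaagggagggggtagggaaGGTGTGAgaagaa
Gzma, chr13:113100982-113101231, minus strand: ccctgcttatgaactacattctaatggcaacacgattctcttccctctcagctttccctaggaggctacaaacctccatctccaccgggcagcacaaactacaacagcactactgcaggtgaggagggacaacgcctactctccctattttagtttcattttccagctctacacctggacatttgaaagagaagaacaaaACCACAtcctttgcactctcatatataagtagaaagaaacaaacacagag

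The Gzmb sequence holds 1 AP-1 match, TGAGTCA, which begins 58 bases before the start site and lies between RUNX matches that begin 93 and 34 bases before it. The Gzmc sequence holds 1 CRE match, which begins 57 bases before the start site, and RUNX matches at 174 and 108. All 10 genes were found in the RefSeq table, with 12 windows of 250 bases before to 50 after a start site. Of these 12 windows, 1 held the AP-1 letters, 1 the CRE letters, 3 the T-box letters and 9 the RUNX letters. Over all 32851 windows of that length the shares were 7.81%, 1.79%, 3.98% and 16.8%. The AP-1 window was that of Gzmb, the CRE window that of Gzmc, and the T-box windows were those of Gzmk, Nkg7 and the second start of Gzmm. The motifs do not overlap in these windows. A match says only that the letters are there. The Gzmc window belongs to a start site inside the annotated range of the gene, so its bases lie within that range, and starts farther upstream were not searched.

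Nkg7 was the granule gene with the largest value in the other direction. It gave 0, 0.20 and -0.11 on Batf+/+ arrays and 0.56, 0.54 and 1.10 on Batf-/- arrays. Each Batf-/- array was above each Batf+/+ array, and Batf-/- array 3 was well above the other two. The means were 0.03 ± 0.16 and 0.73 ± 0.32 (SD, n = 3), a difference of 0.70 ± 0.15 (SE, 95% interval 0.35 to 1.05), or 1.63-fold higher. This did not pass the threshold over all genes in the deposited values or in any of 12 alternative settings, where it lay between 0.52 and 0.80.

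Gzmk and Gzma, granzymes that cut after basic residues, spread widely among the Batf-/- arrays. Gzmk gave -0.08, 0.12 and 0 on Batf+/+ arrays and -0.13, 0.41 and 0.66 on Batf-/- arrays, so 1 Batf-/- array lay below and 2 lay above all Batf+/+ arrays. Its difference was 0.30 ± 0.17 (SE, 95% interval -0.10 to 0.69). Gzma gave -0.02, 0.12 and 0 on Batf+/+ arrays and -0.19, -0.42 and 0.16 on Batf-/- arrays, where arrays 1 and 2 were below and array 3 above all Batf+/+ arrays. The difference was -0.18 ± 0.14 (SE, 95% interval -0.49 to 0.13). Gzmm, a granzyme that prefers to cut after methionine or leucine, stayed between -0.07 and 0.09 on all 6 arrays, with a difference of 0.03 ± 0.08 (SE, 95% interval -0.14 to 0.20).

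Perforin, serglycin and Lamp1 had differences whose 95% intervals include 0. Prf1, perforin, gave -0.01, 0 and 0.04 on Batf+/+ arrays and 0.13, 0.05 and 0.12 on Batf-/- arrays as the mean of its 2 probe sets, a difference of 0.09 ± 0.07 (SE, 95% interval -0.07 to 0.25). The groups did not overlap, but by a narrow gap, and the probe sets taken singly gave -0.04 ± 0.08 and 0.21 ± 0.10 (SE), of opposite sign. Srgn, serglycin, lay between -0.09 and 0.09 on all arrays, with a difference of -0.01 ± 0.08 (SE, 95% interval -0.18 to 0.17). For Lamp1 the arrays lay between -0.0016 and 0.17 and the difference was 0.04 ± 0.08 (SE, 95% interval -0.13 to 0.22). The intervals of Gzmm, Prf1, Srgn and Lamp1 all lie within 0.25 log2 units of 0. For Prf1 this holds for the mean of its probe sets, and the higher one alone had an interval of -0.02 to 0.45. Since the values hold no level, such an interval does not show that the RNA was present.

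Serpinb9, the inhibitor of granzyme B, overlapped between genotypes. It gave 0, -0.10 and 0.10 on Batf+/+ arrays and -0.04, -0.10 and 0.43 on Batf-/- arrays, with its 2 probe sets at 0.11 ± 0.14 and 0.09 ± 0.14 (SE). Batf-/- arrays 1 and 2 lay within the Batf+/+ range and array 3 above it. The difference of 0.10 ± 0.14 (SE, 95% interval -0.21 to 0.41) became -0.07 without Batf-/- array 3.

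**Figure D3:**
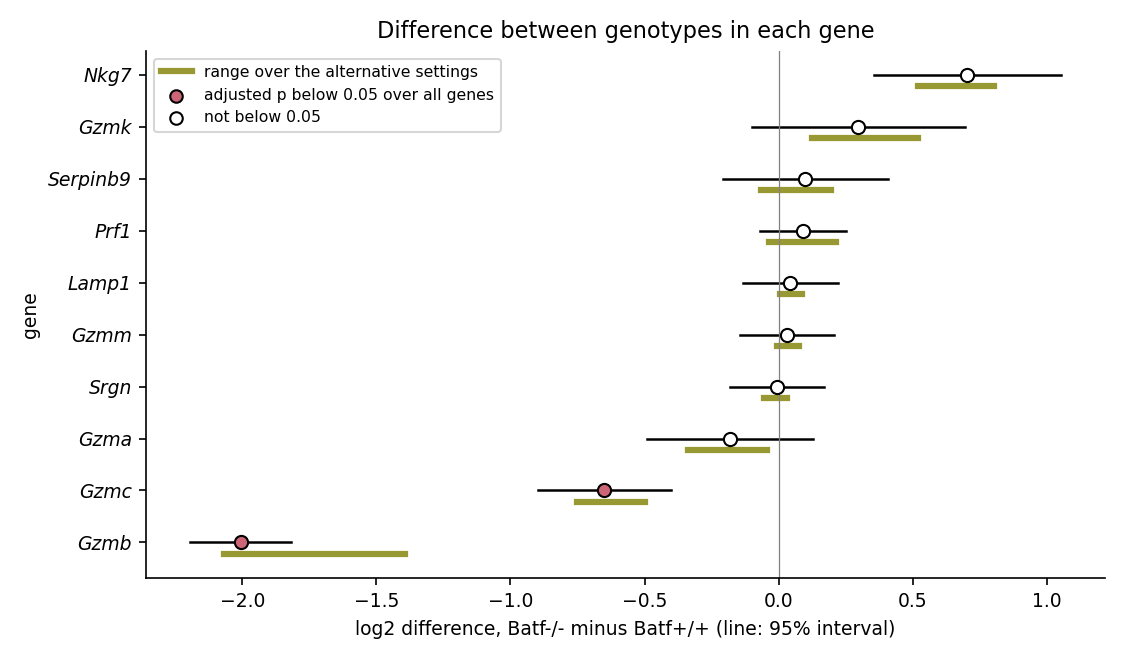
Log2 difference between Batf-/- and Batf+/+ cells (x axis) for each granule gene (y axis), with its 95% interval as a black line. The lowest to highest value over the alternative settings is a thick line below it. Filled points passed the limma test over all genes. Gzmb and Gzmc lie below 0 throughout, Nkg7 lies above 0 throughout, and the intervals of the other 7 genes include 0.

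Batf-/- array 3 gave the highest of the 3 Batf-/- values in 8 of the 10 genes, and in 41.1% of all 18193 genes. The spread between Batf-/- arrays was larger than that between Batf+/+ arrays in 8 of the 10 genes and in 54.3% of all genes. Tbx21, which encodes the Th1 and cytotoxic factor T-bet, was 1.21 on that array and 0.10 and -0.18 on the others, with a difference of 0.37 ± 0.29 (SE, limma adjusted p = 0.956). Eomes, a related T-box factor, was 0.84 there and 0.10 and 0.20 on the others (0.41 ± 0.17, adjusted p = 0.574). Without array 3 they were -0.04 for Tbx21 and 0.19 for Eomes. Among the granule genes, the differences without array 3 were 0.13 for Gzmk, -0.34 for Gzma, 0.52 for Nkg7, -0.07 for Serpinb9, -0.59 for Gzmc and -2.07 for Gzmb.

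Markers of other cell types were also higher on Batf-/- array 3 in part. The mean over 3 measured B cell markers was 0.38 there, against -0.05 to 0.01 on the other Batf-/- arrays and -0.09 to 0.09 on Batf+/+ arrays. The mean over 4 myeloid markers was 0.33, against -0.14 to 0.02 and -0.04 to 0.14. In these lists the top of the Batf+/+ range, 0.09 for B cell and 0.14 for myeloid markers, was also array 3. For 8 measured NK cell markers, which include Eomes, it was 0.21, against -0.08 to 0.09 and -0.07 to 0.06. Of the 8, 4 had their highest Batf-/- value on that array. There Eomes stood at 0.84, Tyrobp at 0.51, Klrd1 at 0.32, Fcer1g at 0.18 and Klrk1 at 0.09. Klre1, Ncr1 and Klra8 stood at -0.07, -0.09 and -0.12, so the NK cell mean does not stand for each marker. The means over 2 CD8 T cell markers lay between -0.08 and 0.08 on Batf-/- arrays, highest on array 3, against -0.05 to 0.05 on Batf+/+ arrays. Those over 4 granulocyte markers lay between -0.20 and 0.08, against -0.14 to 0.17, with array 3 the highest in each genotype. Those over 5 markers of mast cells and basophils lay between 0.07 and 0.21, against -0.12 to 0.07, and those over 3 markers of plasmacytoid dendritic cells between -0.16 and 0.02, against -0.11 to 0.02. Over all 29 measured markers of other cell types, 0 passed the limma test between genotypes, with 1 lower and 3 higher at an unadjusted p below 0.05. Of 7 Treg cell markers 0 passed, with 2 lower and 1 higher unadjusted. The unadjusted shares of all genes were 4.44% lower and 3.25% higher. Because the values hold no absolute level, which of these markers are present at all cannot be said. The part of other cells in the values of the granule genes, Gzmb and Gzmc included, was not tested. Without Batf-/- array 3 the differences of Gzmb and Gzmc are as given above, and Gzmc no longer passed the threshold (limma adjusted p = 0.0798).

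**Figure D4:**
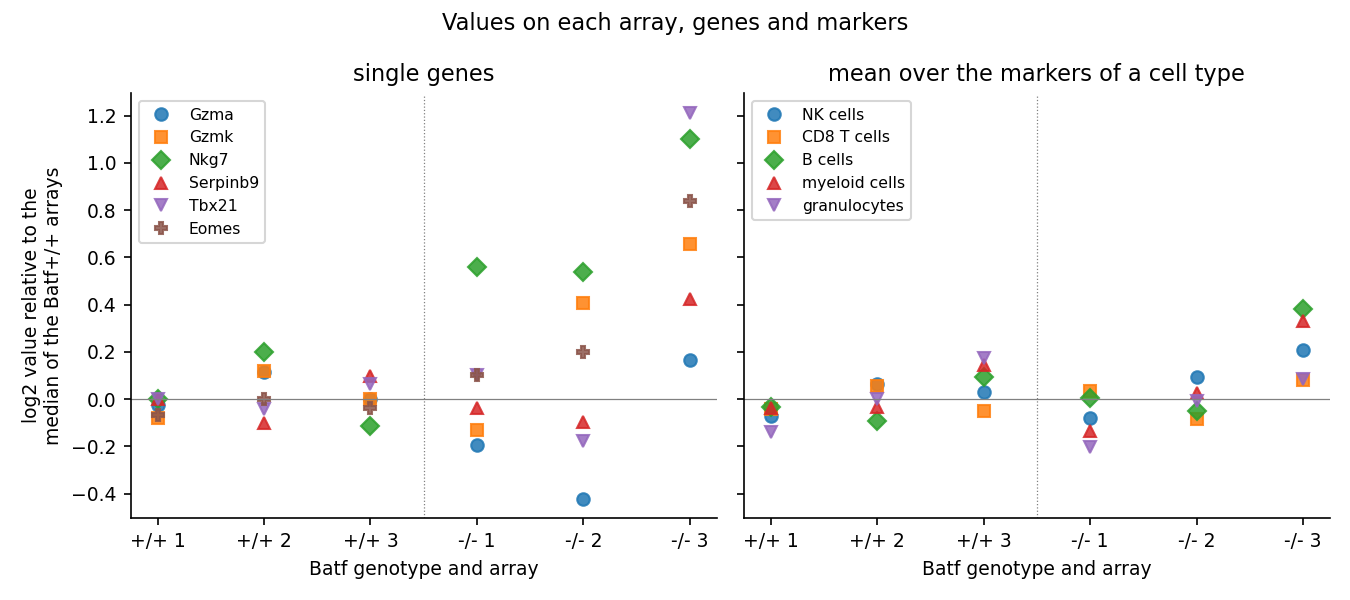
Log2 values set against the Batf+/+ median (y axis) on each array (x axis) for 4 granule genes with Tbx21 and Eomes (left), and the mean over the measured markers of 5 other cell types (right). Batf-/- array 3 is highest for all 6 genes on the left, with Tbx21 at 1.21 and Nkg7 at 1.10. On the right it is highest for the means of B cell, myeloid, NK cell and CD8 T cell markers, at 0.38, 0.33, 0.21 and 0.08. The NK cell mean includes Eomes, at 0.84 on that array. Granulocyte markers are highest on Batf+/+ array 3, at 0.17.

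The rest of the granule pathway was followed in 7 lists of 62 genes, of which 57 were measured. Of these, 7 fell and 0 rose in Batf-/- cells (limma adjusted p below 0.05, with 14 lower and 4 higher at an unadjusted p below 0.05), and the median log2 difference was -0.04. The shares of all genes were 0.83% lower and 0.313% higher after adjustment and 4.44% and 3.25% before it. These shares are printed as a scale for the counts of the lists, and nothing is read from them. The 7 were Ctla2a, Ctla2b, Cst7, Ctsw, Stx11, Fasl and Prdm1. They come from different steps: inhibitors, a protease, a fusion protein, a death ligand and a transcriptional repressor. The lists were written with earlier results of these data known, Ctla2a and Prdm1 among them, so their counts are no independent evidence.

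Inhibitors of granule proteases held the largest decreases. Of 10 measured genes 3 fell and 0 rose (0.83% and 0.313% of all genes), with a median of -0.09. At an unadjusted p below 0.05, 4 were lower and 1 higher (4.44% and 3.25% of all genes). Cst7, cystatin F, an inhibitor of the cathepsins that remove the propeptide of granzymes, gave 0.00, 0 and 0.15 on Batf+/+ arrays and -1.67, -1.64 and -1.36 on Batf-/- arrays. It was 3.04-fold lower (-1.60 ± 0.10 SE, limma adjusted p = 0.000164, n = 3 per genotype). Ctla2b, which resembles the propeptide of cathepsin L, gave 0, 0.16 and 0 on Batf+/+ arrays and -1.65, -2.05 and -1.35 on Batf-/- arrays, 3.33-fold lower (-1.74 ± 0.16 SE, adjusted p = 0.00136). Its relative Ctla2a was lower by a log2 difference of -2.17 ± 0.20 (SE), and how far the probe sets of the 2 relatives share RNA was not tested. None of the 6 measured serpins of the Serpinb9 and Serpinb6 families passed the test in either direction. Serpinb6a had a difference of -0.28 ± 0.08 (SE, adjusted p = 0.207), Serpinb6b one of 0.45 ± 0.15 (adjusted p = 0.367), and the 4 measured relatives of Serpinb9 lay between -0.04 and 0.12. These serpins were named after their values were seen.

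Of 8 measured genes for sorting and processing of granzymes, 1 fell and 0 rose (0.83% and 0.313% of all genes), with a median of -0.09. At an unadjusted p below 0.05, 2 were lower and 0 higher (4.44% and 3.25% of all genes). Ctsc, cathepsin C, which activates granzymes, had a difference of -0.11 ± 0.11 (SE, limma adjusted p = 0.984). The 1 gene that fell was Ctsw, cathepsin W, a protease of cytotoxic lymphocytes, at -0.07, 0 and 0.11 on Batf+/+ arrays and -0.33, -0.44 and -0.53 on Batf-/- arrays. Its difference of -0.45 ± 0.09 (SE, adjusted p = 0.0484) did not pass with the replicate block (adjusted p = 0.0716) or when any single array was left out (adjusted p = 0.0546 to 0.176), and it passed in 2 of 12 alternative settings. Lamp2, a lysosomal membrane protein, named as the single measured gene of the granule membrane list, had a difference of 0.04 ± 0.09 (SE, adjusted p = 0.99991).

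Of 17 measured genes for docking and release of granules, 1 fell and 0 rose (0.83% and 0.313% of all genes), with a median of -0.01. Before adjustment 2 were lower and 1 higher (4.44% and 3.25% of all genes). Stx11, syntaxin 11, a SNARE protein that cytotoxic cells need for granule fusion, gave 0, 0.01 and -0.26 on Batf+/+ arrays and -1.04, -1.33 and -0.80 on Batf-/- arrays. Its groups stood apart and the fall was 1.97-fold (-0.98 ± 0.14 SE, limma adjusted p = 0.0106). Its probe sets gave -1.09 and -0.87. The call was lost after quantile normalization (adjusted p = 0.0540) and when Batf+/+ array 1 or 2 was left out (adjusted p = 0.0621 and 0.0614). Rab27a, which tethers granules to the membrane, had a difference of 0.23 ± 0.09 (SE, adjusted p = 0.523), and its partner Unc13d one of -0.09 ± 0.08 (adjusted p = 0.980). The 4 probe sets of Rab27a differed among themselves, from -0.01 to 0.58.

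Among 4 death ligands 1 fell and 0 rose (0.83% and 0.313% of all genes), with a median of -0.17. Before adjustment 2 were lower and 0 higher (4.44% and 3.25% of all genes). Fasl, the ligand of the death receptor Fas, gave 0.30, -0.06 and -0.06 on Batf+/+ arrays and -0.62, -0.78 and -1.14 on Batf-/- arrays. It was 1.88-fold lower (-0.91 ± 0.15 SE, limma adjusted p = 0.0228), and both probe sets were close to that, at -0.90 and -0.92. The call was lost when any Batf+/+ array was left out (adjusted p = 0.0524 to 0.0868) or Batf-/- array 2 (adjusted p = 0.0681). It was also lost after quantile normalization (0.0601) and with every probe set tested (0.0616).

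Of 12 regulators of cytotoxic genes 1 fell and 0 rose (0.83% and 0.313% of all genes), with a median of 0.00. Before adjustment 4 were lower and 2 higher (4.44% and 3.25% of all genes). Prdm1, the repressor Blimp-1, was at 0.07, -0.01 and 0 on Batf+/+ arrays and at -0.78, -0.99 and -0.52 on Batf-/- arrays (-0.78 ± 0.12 SE, limma adjusted p = 0.0132). The call was lost when any Batf+/+ array was left out (adjusted p = 0.0510 to 0.0724) and after quantile normalization (-0.62, adjusted p = 0.0616). Runx3, a RUNX factor of CD8 T cells, had a difference of -0.19 ± 0.08 (SE, adjusted p = 0.545), with its probe sets apart at -0.03 and -0.36. The 5 granzymes outside the set, Gzmd, Gzme, Gzmf, Gzmg and Gzmn, had differences between -0.11 and 0.11, and 0 passed in either direction, also at an unadjusted p below 0.05. One further probe set names both Gzme and Gzmd and had a difference of -0.02.

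**Figure D5:**
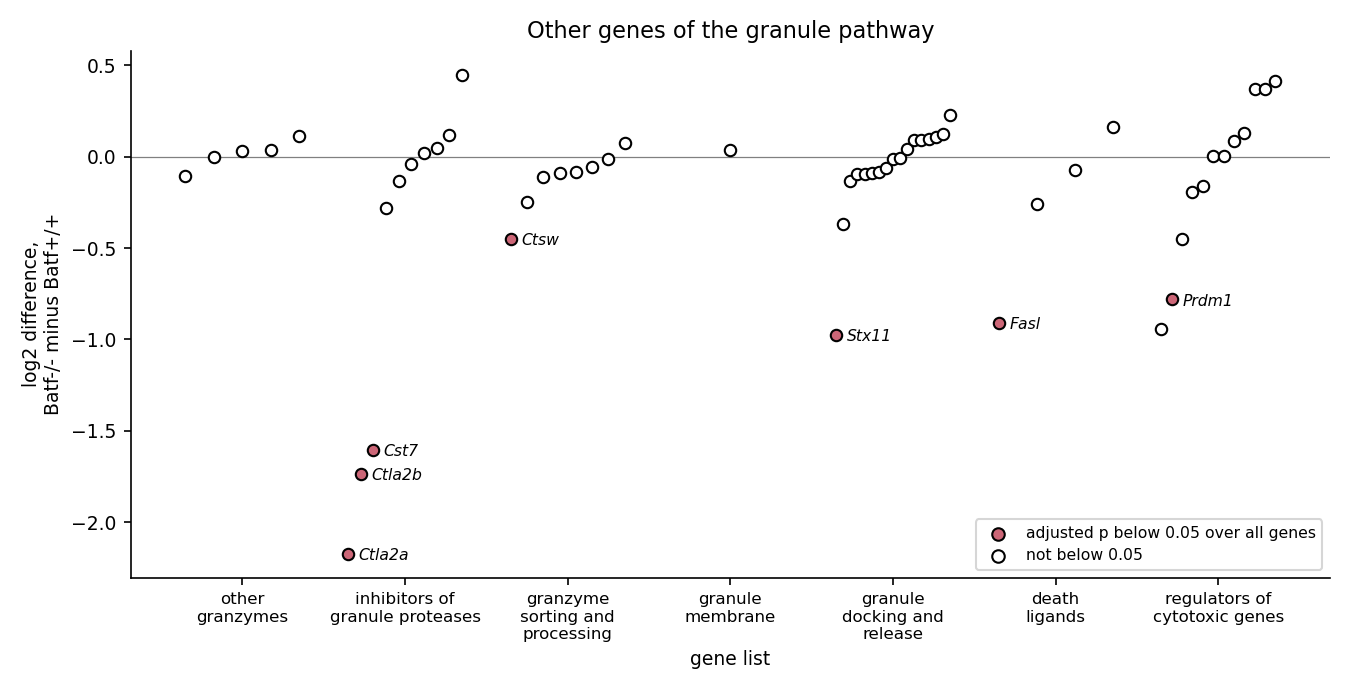
Log2 difference between Batf-/- and Batf+/+ Treg cells (y axis) for the 57 measured genes of 7 lists of the granule pathway (x axis), each point 1 gene. Filled and named points passed the limma test over all genes, from Ctla2a at -2.17 to Ctsw at -0.45, and all of them lie below 0.

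Across the 6 arrays, the genes whose values lay nearest to those of Gzmb were Klrg1, Npas4, Lgals3, Ctla2b and Cst7, with root mean square distances of 0.15, 0.16, 0.24, 0.29 and 0.34 log2 units. Klrg1 encodes an inhibitory receptor of differentiated lymphocytes. Its Batf+/+ arrays stood at -0.24, 0.05 and 0 and its Batf-/- arrays at -1.93, -2.35 and -1.81. Among the Batf-/- arrays, array 2 was lowest for Gzmb, Klrg1, Npas4, Lgals3 and Ctla2b, and array 1 for Cst7. Among the Batf+/+ arrays, array 2 was highest for Klrg1 and lowest for Gzmb. The distance rests mostly on the size of the genotype difference, and all 6 points share the arrays.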

How the data were processed

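Gene expression was measured on 3 arrays of Batf+/+ and 3 arrays of Batf-/- Treg cells. Per the labels' protocols, RNA was labelled with biotin by a 3′ in vitro transcription kit, and per the submitters' processing notes the deposited log2 values come from RMA. Neither gives a version or log base, so base 2, which RMA uses, was assumed. From the values, the middle Batf+/+ array is exactly 0 in each of 45101 probe sets, a centring no label describes. It leaves differences between genotypes intact, removes absolute levels and leaves nothing on which to filter low values, so no filter was applied. Signal over background is unknown, and the number of arrays limits the precision.

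Probe sets were named by the platform annotation. 34945 named 1 gene, 932 several, 9160 none and 64 were controls, and only the first kind was used. A gene's value is the mean of its probe sets. Genotypes were compared with limma 3.58.1 (lmFit, eBayes) in R 4.3.3 over 18193 genes with Benjamini-Hochberg adjustment, called at an adjusted p below 0.05. The fit was tested on simulated data. The design named a fixed set of genes: the 10 members, Batf, Foxp3, up to 4 called genes a list, 7 fixed regulators and release genes, neighbours of Gzmb, Gzmc, Gzma and Gzmk, and the 5 genes nearest to Gzmb. Others are said to be named after their values were seen. The members and lists were chosen with earlier results of these data known.

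The titles number the arrays of both genotypes 1 to 3. Once group means were removed, the arrays numbered 1, 2 and 3 correlated with their counterparts at 0.407, 0.154 and 0.413 across genes. All 3 exceed 0.1, so a fit that pairs equal numbers (the replicate block) was run, on the values' evidence and not the labels'. The fit without pairs stayed the main one, and the shares of all genes come from it. With the block 202 genes were lower and 91 higher, against 151 and 57 in the main fit. Alternatives were the replicate block, array weights, quantile normalization, equal array medians, probe sets without shared-sequence suffixes, every probe set tested and each array left out.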

Additional observations from a re-analysis of the deposited data

How the results depend on the processing

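Gzmb passed the threshold in all 12 alternative settings, with log2 differences from -2.07 to -1.39. The count of granule genes called lower was 2, and it was 1, by the loss of Gzmc, after quantile normalization and when every probe set was tested, and 1 to 2 when arrays were left out. The count called higher was 0 throughout. Of the wider lists, 7 genes were called lower, 3 after quantile normalization and 3 to 6 when arrays were left out (3 without Batf+/+ array 1 or 2). Over all genes, 151 were lower and 57 higher, against 58 and 23 after quantile normalization. The replicate block gave 202 lower and 91 higher genes. Leaving out arrays gave 73 to 141 lower and 31 to 51 higher genes: 78 lower and 31 higher without Batf+/+ array 1, 73 and 32 without Batf+/+ array 2, 32 higher without Batf+/+ array 3, 36 higher without Batf-/- array 1 and 94 lower without Batf-/- array 2. The block changed no call among the 10 granule genes and, of the called genes of the wider lists, that of Ctsw alone. Gzma, Gzmm and Lamp1 have only probe sets whose suffix marks shared sequence, so that setting gives no value for them. Quantile normalization puts all 6 arrays on 1 common distribution. It thus widens the centred Batf+/+ arrays, narrower by construction (SD 0.12 to 0.17), and narrows the Batf-/- arrays (SD 0.24 to 0.26). The causes of these changes were not tested. A filter on low values could not be run on centred values.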
